A study of Mus musculus with 6 samples.

Results

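Small leucine-rich proteoglycans are secreted matrix proteins built around leucine-rich repeats, most of which carry sulfated sugar chains. They bind collagen fibrils and limit how thick the fibrils grow, and several also bind growth factors of the transforming growth factor beta (TGF-beta) family or signal through cell surface receptors. In the heart they are made mainly by fibroblasts and other connective tissue cells of the interstitium, the vessels and the valves. The 10 genes described here were picked by name: the class I genes Dcn (decorin), Bgn (biglycan) and Aspn (asporin), the class II genes Lum (lumican), Fmod (fibromodulin), Prelp and Omd (osteomodulin), the class III gene Ogn (osteoglycin), the class V gene Podn (podocan), and Islr (meflin), a related leucine-rich repeat protein with an immunoglobulin domain. They are 10 of the 54532 genes of the deposited table, which lists 22046 protein coding genes, and all 10 were found in it.

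The values come from RNA-seq of hearts of mice aged 4 days, with 3 libraries from Wtap-CKO mice, in which Wtap is conditionally knocked out, and 3 from Wtapflox/flox mice, which carry the floxed allele on both chromosomes. Wtap encodes a subunit of the complex that methylates adenosines in RNA, and the submitters describe the 3 libraries of each group as independent biological replicates. The labels used here name neither the Cre driver nor the deleted part of Wtap, and do not say whether the Wtapflox/flox mice carried Cre, so the cells that lost Wtap are not named. Wtap itself was at 9.32, 7.75 and 9.46 FPKM in the libraries labelled Wtap-CKO 1, 2 and 3 and at 7.77, 8.74 and 10.9 FPKM in Wtapflox/flox 1, 2 and 3 (log2 fold change -0.04, 95% confidence interval -0.37 to 0.29, adjusted p = 0.893, limma), so this whole-gene value does not check the group labels.

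Levels are given as FPKM as deposited, fragments scaled by gene length and a factor for each library. Depth was 15812407 to 18045599 reads in genes in Wtap-CKO libraries and 15649028 to 17115796 in Wtapflox/flox libraries. The factor did not simply follow these reads. The implied library size was 16148068 for 16485304 reads in Wtap-CKO 1 and 17431182 for 16589331 in Wtapflox/flox 1. Relative to the geometric mean it was 0.9678 and 1.0447 there, close to size factors from median ratios between libraries (0.973 and 1.0503). The first principal component separated the groups with 52.6% of the variance. The second (20.4%) spread the Wtap-CKO libraries to both sides of the Wtapflox/flox libraries. Wtap-CKO 1, 2 and 3 were at 14.67, 21.29 and -28.07 on it, and Wtapflox/flox libraries at -4.14 to -0.13. Of 12568 genes that averaged 1 FPKM or more, 2086 passed an adjusted p under 0.05 in limma on log2(FPKM + 1). Of those calls 59.7% were higher in Wtap-CKO hearts, against 33.3% after scaling every library to the same summed FPKM (TPM), 32.7% after scaling without mitochondrially encoded genes, 45.4% after upper-quartile scaling and 52.8% after quantile normalization. Those scalings moved the median of all tested genes by -0.13, -0.14, -0.07 and -0.03. Summed cardiomyocyte markers, from 17450 to 21320 FPKM in Wtap-CKO libraries and 16400 to 19890 FPKM in Wtapflox/flox libraries, fitted the label of heart tissue.

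The family did not move as one. Bgn was higher in Wtap-CKO hearts, at 1.69 times its mean FPKM in Wtapflox/flox hearts, while Lum, Islr and Dcn were lower, at 0.484, 0.579 and 0.656 times theirs. Ogn, Aspn, Fmod and Prelp did not pass the test, and Omd and Podn, with means under 1 FPKM, were not tested. Thus 4 of 8 tested members were called, where 16.6% of all tested genes were; 1 was higher against a background of 9.91%, and 3 were lower against 6.69%. The libraries of the groups did not overlap for 6 of the 8, against 37.1% of all tested genes. The median log2 fold change of the 8 was -0.12, and that of all tested genes was 0.00. Under the 4 other scalings Bgn stayed higher and Lum, Islr and Dcn stayed lower. On the TPM scale, where the median of all tested genes was -0.13, they were at 0.58, -1.18, -0.85 and -0.76. In bulk RNA, fewer cells of a type and less RNA per cell cannot be told apart.

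**Figure D1:**
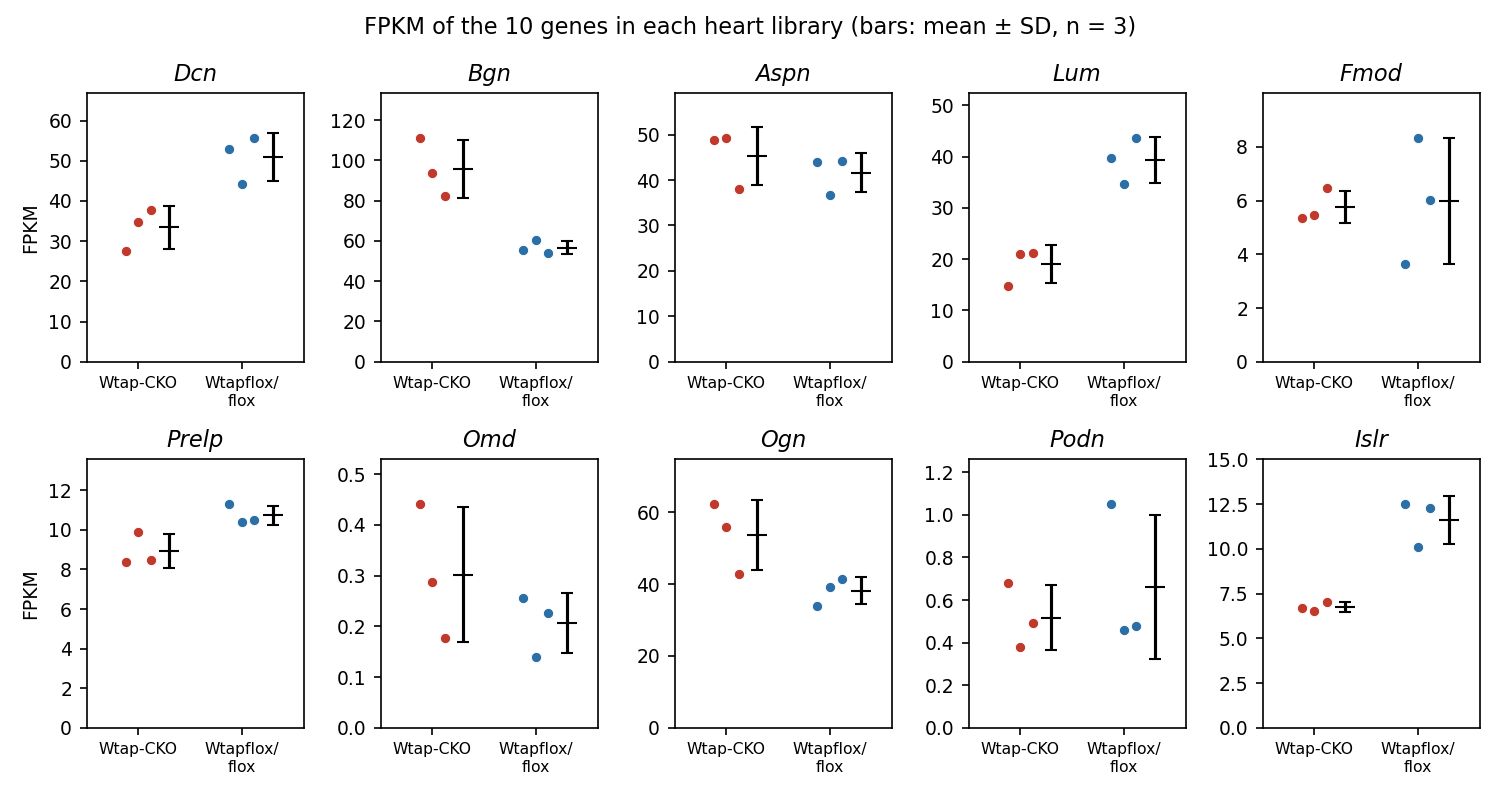
FPKM of each of the 10 genes in every library, with Wtap-CKO left of Wtapflox/flox, points for libraries and bars for the mean and SD (n = 3). Bgn lies higher in all 3 Wtap-CKO libraries, Dcn, Lum and Islr lie lower in all 3, and Aspn, Fmod, Omd and Podn overlap between the groups.

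The order of the transcripts differed between the groups on the FPKM scale, which is per length. In Wtap-CKO hearts the means ran Bgn (95.9 FPKM), Ogn (53.7), Aspn (45.4), Dcn (33.4), Lum (19.0), Prelp (8.91), Islr (6.75), Fmod (5.76), Podn (0.517) and Omd (0.302). In Wtapflox/flox hearts they ran Bgn (56.6 FPKM), Dcn (50.9), Aspn (41.6), Lum (39.3), Ogn (38.2), Islr (11.7), Prelp (10.7), Fmod (6.0), Podn (0.660) and Omd (0.207). Among neighbours in these orders, Ogn and Aspn and also Podn and Omd overlapped between libraries in Wtap-CKO hearts. Bgn and Dcn, Aspn and Lum, Lum and Ogn, and Islr and Prelp overlapped in Wtapflox/flox hearts. Bgn stood clear of every other member in the Wtap-CKO libraries only.

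Summed over the 10 genes, the Wtap-CKO libraries held 287, 277 and 245 FPKM, against 255, 245 and 268 FPKM in the Wtapflox/flox libraries. The sums overlapped, and on the TPM scale they were 786, 775 and 631 in Wtap-CKO libraries and 807, 734 and 790 in Wtapflox/flox libraries, which overlapped too. The make-up of the sum differed. Bgn took 38.9%, 33.9% and 33.6% of it in Wtap-CKO libraries and 21.8%, 24.7% and 20.2% in Wtapflox/flox libraries. Lum took 5.18%, 7.57% and 8.69% in Wtap-CKO libraries and 15.6%, 14.2% and 16.3% in Wtapflox/flox libraries. Dcn averaged 12.5% ± 2.89 of the sum in Wtap-CKO hearts and 19.9% ± 1.54 in Wtapflox/flox hearts, and Ogn 19.8% ± 2.12 in Wtap-CKO hearts and 14.9% ± 1.42 in Wtapflox/flox hearts (SD, n = 3 each). Shares of the sum do not depend on a single factor applied to a whole library, but they would change under quantile normalization. As parts of a whole they are tied, so a larger share of Bgn goes with smaller shares of other members. The shares were not tested, since they were looked at after the values of the members were known.

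**Figure D2:**
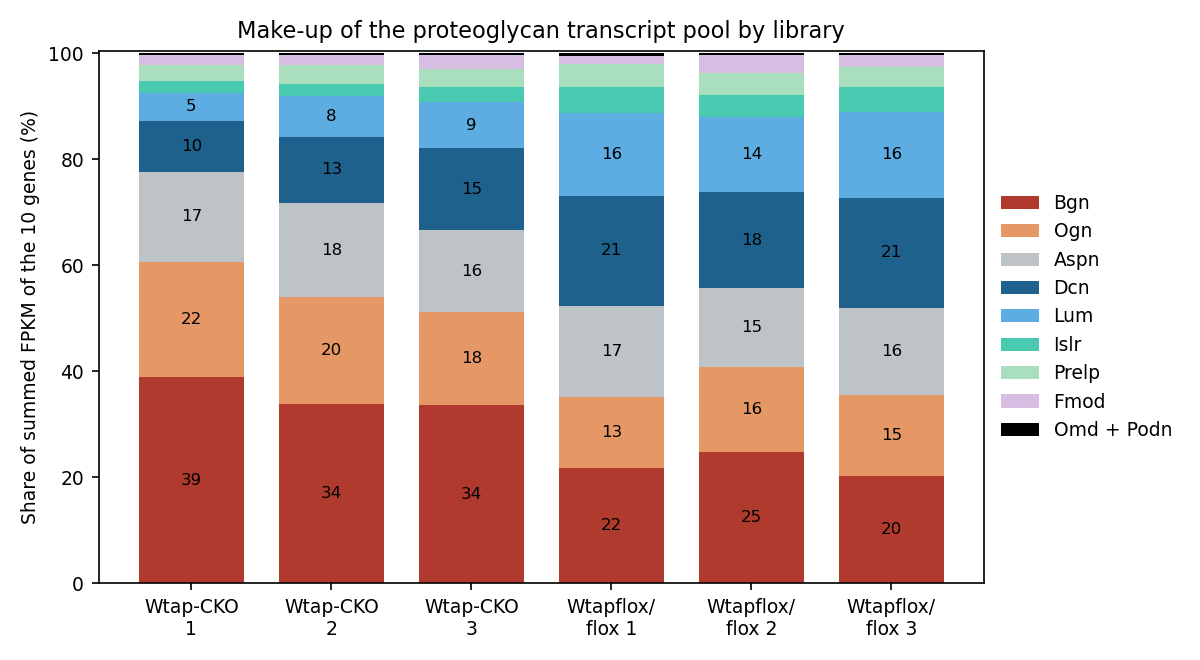
Share of the summed FPKM of the 10 genes taken by each gene, as percent, one stacked bar for each library with Wtap-CKO left of Wtapflox/flox. Bgn takes 33.6% to 38.9% in Wtap-CKO libraries and 20.2% to 24.7% in Wtapflox/flox libraries, while the shares of Dcn and Lum are smaller in Wtap-CKO.

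Bgn and Dcn are the closest pair of the family, both class I proteins with chondroitin or dermatan sulfate chains, and they moved in opposite directions. Biglycan binds collagen and, when freed from the matrix, signals through Toll-like receptors. Bgn (ENSMUSG00000031375, chromosome X, 73483602 to 73495933, plus strand, GRCm38) was at 111, 93.9 and 82.4 FPKM in Wtap-CKO 1, 2 and 3, against 55.4, 60.4 and 54.1 FPKM in Wtapflox/flox 1, 2 and 3. Each Wtap-CKO library lay above all 3 Wtapflox/flox libraries, and Wtap-CKO 1 was the highest. These values rest on 8842 to 10980 reads per library in Wtap-CKO and 5847 to 5889 in Wtapflox/flox. The mean was 95.9 ± 14.7 FPKM in Wtap-CKO and 56.6 ± 3.34 FPKM in Wtapflox/flox (SD, n = 3 each), a log2 fold change of 0.74 (SE 0.15, 95% confidence interval 0.40 to 1.08, adjusted p = 0.0127, limma). Without Wtap-CKO 1 the log2 fold change was 0.63 and missed the threshold, with an adjusted p of 0.0542 (0.00145 to 0.0542 over 20 alternatives). Over all 20 it ran from 0.53, after quantile normalization (adjusted p = 0.0482, limma), to 0.84, without Wtap-CKO 3.

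Decorin, the best known member, lies on the surface of collagen fibrils and holds TGF-beta in the matrix. Dcn (ENSMUSG00000019929, chromosome 10, 97479609 to 97518143, plus strand) was at 27.6, 34.8 and 37.8 FPKM in Wtap-CKO 1, 2 and 3, against 52.8, 44.2 and 55.6 FPKM in Wtapflox/flox 1, 2 and 3. All 3 Wtap-CKO libraries were below all 3 Wtapflox/flox libraries, and the nearest pair was Wtap-CKO 3 and Wtapflox/flox 2. Dcn averaged 33.4 ± 5.20 FPKM in Wtap-CKO and 50.9 ± 5.95 FPKM in Wtapflox/flox, and fell by 0.60 on the log2 scale (SE 0.16, 95% confidence interval -0.96 to -0.24, adjusted p = 0.0336, limma). The call was close to the threshold. It was lost without any one of Wtap-CKO 1, Wtap-CKO 2, Wtapflox/flox 1, Wtapflox/flox 2 or Wtapflox/flox 3 (adjusted p = 0.0515 to 0.124) and with a filter at 0.1 FPKM (0.054) or no filter (0.0917), and kept in the other 13 of 20 alternatives, with a log2 fold change of -0.77 to -0.47 over all 20. Bgn had 4.03, 2.70 and 2.18 times the FPKM of Dcn in Wtap-CKO 1, 2 and 3, and 1.05, 1.37 and 0.972 times in Wtapflox/flox 1, 2 and 3.

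Asporin, the third class I member, carries a run of aspartates and binds collagen and TGF-beta. Aspn (ENSMUSG00000021388, chromosome 13, 49544443 to 49567565, plus strand) was at 48.9, 49.2 and 38 FPKM in Wtap-CKO 1, 2 and 3 and at 44.0, 36.7 and 44.1 FPKM in Wtapflox/flox 1, 2 and 3. The groups overlapped, with Wtap-CKO 3 below 2 of the Wtapflox/flox libraries. The log2 fold change was 0.12 (95% confidence interval -0.23 to 0.46, adjusted p = 0.638, limma), and its sign turned under 3 scalings (-0.06 to -0.01).

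**Figure D3:**
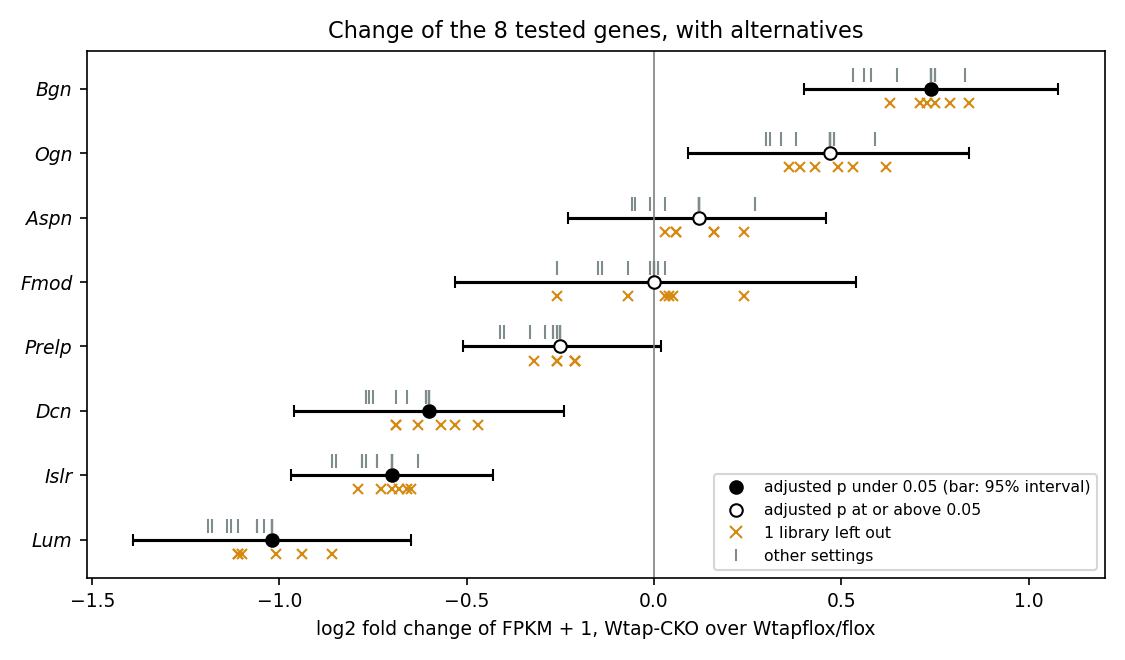
Log2 fold change of FPKM + 1 of each tested gene, Wtap-CKO over Wtapflox/flox (circles, filled where the adjusted p is under 0.05), with 95% confidence intervals from limma, crosses for fits with 1 library left out and ticks for other settings. Lum (-1.02), Islr (-0.70) and Dcn (-0.60) lie below 0 with all their alternatives, and Bgn (0.74) and Ogn (0.47) lie above it with all of theirs.

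Among the class II members, which bind collagen at sites of their own and carry keratan sulfate or no chain in many tissues, Lum had the largest change of the family. Lumican limits fibril thickness and is known for keeping the cornea clear. Lum (ENSMUSG00000036446, chromosome 10, 97565128 to 97572703, plus strand) was at 14.8, 21.0 and 21.3 FPKM in Wtap-CKO 1, 2 and 3, against 39.7, 34.7 and 43.6 FPKM in Wtapflox/flox 1, 2 and 3. The highest Wtap-CKO library was well below the lowest Wtapflox/flox library, and the values rest on 587 to 918 reads in Wtap-CKO and 1350 to 1892 reads in Wtapflox/flox. Lum averaged 19.0 ± 3.63 FPKM in Wtap-CKO and 39.3 ± 4.47 FPKM in Wtapflox/flox, and fell by 1.02 on the log2 scale (SE 0.17, 95% confidence interval -1.39 to -0.65, adjusted p = 0.00468, limma). It was called under all 20 alternatives, with a log2 fold change of -1.19 to -0.86. Dcn had 1.86, 1.66 and 1.78 times the FPKM of its neighbour Lum in Wtap-CKO 1, 2 and 3, and 1.33, 1.28 and 1.28 times in Wtapflox/flox 1, 2 and 3.

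The other class II genes did not pass. Prelp, whose protein binds both collagen and heparan sulfate (ENSMUSG00000041577, chromosome 1, 133910304 to 133921414, minus strand), was at 8.36, 9.90 and 8.47 FPKM in Wtap-CKO 1, 2 and 3 and at 11.3, 10.4 and 10.5 FPKM in Wtapflox/flox 1, 2 and 3. The groups did not overlap, but the gap was narrow (log2 fold change -0.25, 95% confidence interval -0.51 to 0.02, adjusted p = 0.183, limma). Fibromodulin, a regulator of fibril assembly in tendon, was at 5.36, 5.46 and 6.45 FPKM in Wtap-CKO 1, 2 and 3 and at 3.64, 8.32 and 6.03 FPKM in Wtapflox/flox 1, 2 and 3 (Fmod, ENSMUSG00000041559, chromosome 1, 134037254 to 134048277, plus strand). The Wtap-CKO libraries lay inside the range of the Wtapflox/flox libraries, and the log2 fold change was 0.00 (95% confidence interval -0.53 to 0.54, adjusted p = 0.994, limma). Omd, best known from bone (ENSMUSG00000048368, chromosome 13, 49582462 to 49592822, plus strand), had 16, 10 and 7 reads in Wtap-CKO 1, 2 and 3 and 10, 5 and 9 reads in Wtapflox/flox 1, 2 and 3, or 0.441, 0.288 and 0.177 FPKM in Wtap-CKO and 0.255, 0.140 and 0.226 FPKM in Wtapflox/flox. With the filter at 0.1 FPKM its log2 fold change was 0.11 (95% confidence interval -0.15 to 0.36, adjusted p = 0.59, limma), and a difference was not detectable at this depth.

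Osteoglycin, also called mimecan, is the class III member and binds collagen in heart and vessel walls. Ogn (ENSMUSG00000021390, chromosome 13, 49608046 to 49624501, plus strand) was at 62.2, 55.9 and 42.9 FPKM in Wtap-CKO 1, 2 and 3, against 33.9, 39.2 and 41.4 FPKM in Wtapflox/flox 1, 2 and 3. The groups did not overlap, though Wtap-CKO 3 lay just above Wtapflox/flox 3. The mean was 53.7 ± 9.86 FPKM in Wtap-CKO and 38.2 ± 3.86 FPKM in Wtapflox/flox, and the log2 fold change of 0.47 (SE 0.17, 95% confidence interval 0.09 to 0.84) missed the threshold at an adjusted p of 0.0871 (limma). It was called in 3 of 20 alternatives: with array weights (adjusted p = 0.00855), without Wtap-CKO 3 (log2 fold change 0.62, adjusted p = 0.0231) and with limma-voom on recovered reads (adjusted p = 0.0491), in a range of 0.00855 to 0.263 over all 20. Ogn had 1.27, 1.14 and 1.13 times the FPKM of Aspn, which lies 2 genes away, in Wtap-CKO 1, 2 and 3, and 0.771, 1.07 and 0.939 times in Wtapflox/flox 1, 2 and 3.

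Islr, known as meflin and as a surface marker of mesenchymal stromal cells and fibroblasts, was lower in Wtap-CKO hearts. The gene (ENSMUSG00000037206, chromosome 9, 58156268 to 58204306, minus strand) was at 6.71, 6.51 and 7.03 FPKM in Wtap-CKO 1, 2 and 3, against 12.5, 10.1 and 12.3 FPKM in Wtapflox/flox 1, 2 and 3. The groups were well apart, and the Wtap-CKO libraries differed little from each other, on 270 to 333 reads in Wtap-CKO and 433 to 586 reads in Wtapflox/flox. Islr averaged 6.75 ± 0.264 FPKM in Wtap-CKO and 11.7 ± 1.31 FPKM in Wtapflox/flox and fell by 0.70 on the log2 scale (SE 0.12, 95% confidence interval -0.97 to -0.43, adjusted p = 0.00585, limma). The call held under all 20 alternatives, with a log2 fold change of -0.86 to -0.63. Podn, a class V protein that restrains smooth muscle growth in mouse arteries (ENSMUSG00000028600, chromosome 4, 108014791 to 108096445, minus strand), had 47, 25 and 37 reads in Wtap-CKO 1, 2 and 3 and 78, 31 and 36 reads in Wtapflox/flox 1, 2 and 3. That is 0.682, 0.379 and 0.491 FPKM in Wtap-CKO and 1.05, 0.457 and 0.476 FPKM in Wtapflox/flox, which overlapped. With the filter at 0.1 FPKM its log2 fold change was -0.12 (95% confidence interval -0.50 to 0.27, adjusted p = 0.699, limma).

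When Wtap-CKO 3 was left out, because it lay apart from the rest, the called members had log2 fold changes of 0.84 for Bgn (adjusted p = 0.00778, limma), -0.69 for Dcn (0.0253), -1.11 for Lum (0.00662) and -0.73 for Islr (0.00958). All 4 stayed called without it, while Dcn was not called when any other library was left out.

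Most of the family sits in gene clusters, and neighbours were not all called. On chromosome 13 the order is Ecm2, Aspn, Omd and Ogn, all on the plus strand, with gaps of 11654, 14897 and 15224 bases. Ecm2, a related leucine-rich repeat matrix gene, was at 2.02, 2.79 and 2.53 FPKM in Wtap-CKO 1, 2 and 3, against 5.49, 4.17 and 4.59 FPKM in Wtapflox/flox 1, 2 and 3. It did not overlap between the groups and was lower (log2 fold change -0.74, adjusted p = 0.00869, limma), whereas Aspn and Ogn, further along the cluster, were at 0.12 and 0.47 and not called. On chromosome 10 Dcn and Lum, both lower, lie 46985 bases apart on the plus strand, and Kera, 34176 bases beyond Lum, was listed at 0 in all libraries but Wtapflox/flox 1 (0.0252 FPKM). On chromosome 1 Prelp and Fmod lie 115840 bases apart on opposite strands, with Optc, at a mean under 0.1 FPKM, 2305 bases from Prelp.

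Of the tested genes flanking members that are not relatives, all named here, only Btg2 passed, where 16.6% of all tested genes did. Btg2 is an antiproliferative gene 26893 bases beyond Fmod. It was at 28.0, 35.1 and 38.4 FPKM in Wtap-CKO 1, 2 and 3 and at 11.9, 14.8 and 14.4 FPKM in Wtapflox/flox 1, 2 and 3, with no overlap (log2 fold change 1.24, adjusted p = 0.00156, limma). Haus7, 24558 bases from Bgn, was at 0.10, Btg1, which precedes Dcn, at -0.01, Nol8, beyond Ogn, at -0.08, Echdc2, beside Podn, at -0.18 and Pml, beside Islr, at -0.14 on the log2 scale (adjusted p = 0.444 to 0.968, limma). Atp2b3, a calcium pump gene 7153 bases beyond Bgn, had a mean under 1 FPKM, with 0.527, 0.403 and 0.694 FPKM in Wtap-CKO libraries and 0.0357, 0.170 and 0.0468 FPKM in Wtapflox/flox libraries, while Slc1a7 and Stra6 were also under 1 FPKM.

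**Figure D4:**
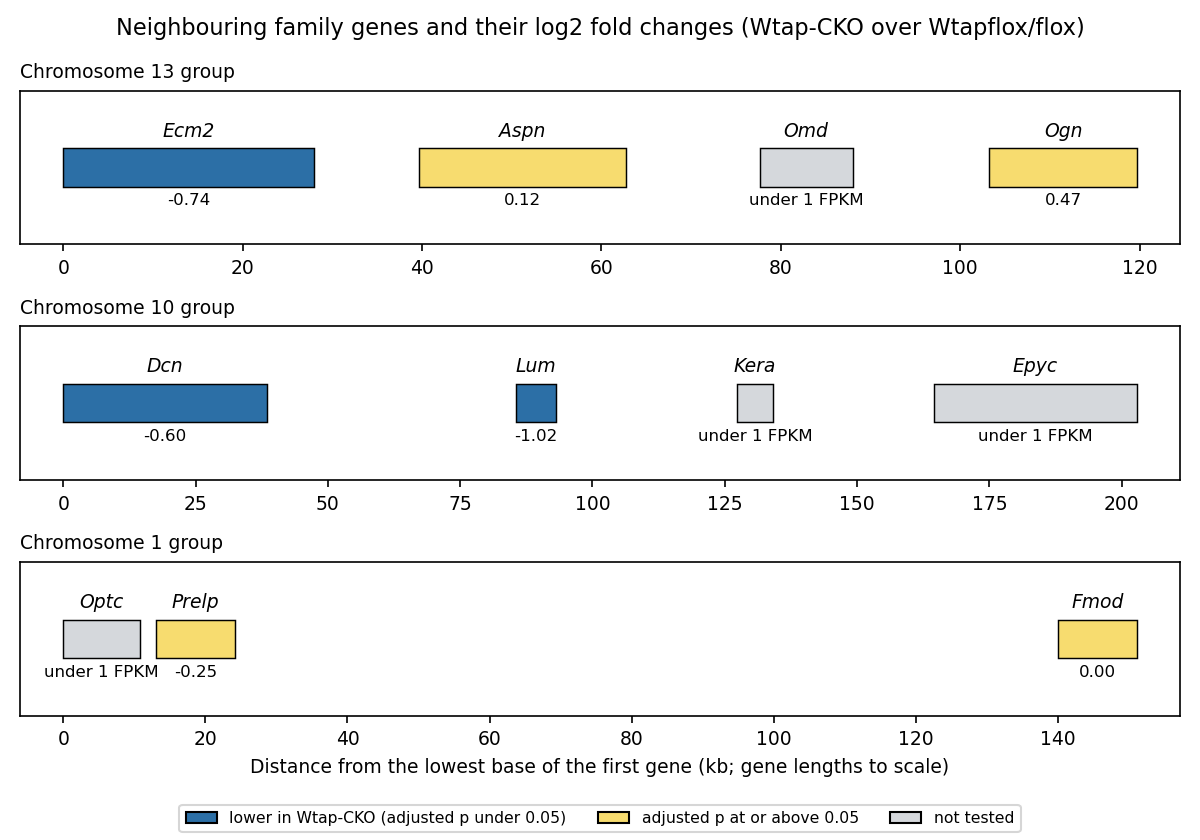
Map of the family genes in the clusters on chromosomes 13, 10 and 1, drawn to scale in kilobases from the lowest base of the first gene, with the log2 fold change of FPKM + 1 (Wtap-CKO over Wtapflox/flox) written under each tested gene and colours for the limma call. Ecm2 (-0.74), Dcn (-0.60) and Lum (-1.02) are lower, Aspn (0.12), Ogn (0.47), Prelp (-0.25) and Fmod (0.00) were not called, and Omd, Kera, Epyc and Optc, under 1 FPKM, were not tested.

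Some members overlap other genes, and whether reads were counted by strand is not given in the sources used here. Aspn, Omd, Ogn and the neighbour Ecm2 lie inside Cenpp, a centromere protein gene on the opposite strand, which was at 1.40, 1.31 and 1.90 FPKM in Wtap-CKO libraries and at 3.04, 3.34 and 4.51 FPKM in Wtapflox/flox libraries (log2 fold change -0.86, adjusted p = 0.00738, limma). Aspn and Ogn were at 33.9 FPKM or more in every library, but for Omd, at 0.441 FPKM or less, and Ecm2, at 2.02 to 5.49 FPKM and lower like Cenpp, reads from Cenpp cannot be told apart. Podn as modelled in the files reaches 64491 bases upstream of its RefSeq start and overlaps Scp2, a lipid transfer protein gene at 20.3 to 33.2 FPKM on the same strand. Islr likewise reaches 45752 bases upstream and overlaps Islr2, which was at 0.0575 to 0.197 FPKM. Which reads of Podn and Islr came from these shared stretches was not tested.

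The stretches just before the starts of Bgn, Ogn, Aspn and Islr are shown because these members differ in their calls and in base make-up. The last 120 bases before each RefSeq start are given 5′ to 3′ on the gene's strand (RefSeq, GRCm38.p6), with motif matches in capitals. They lie at chrX:73483481-73483600 (plus strand), chr13:49607895-49608014 (plus), chr13:49544323-49544442 (plus) and chr9:58158555-58158674 (minus).
Bgn: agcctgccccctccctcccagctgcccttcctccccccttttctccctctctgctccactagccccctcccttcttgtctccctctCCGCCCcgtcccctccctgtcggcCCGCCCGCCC
Ogn: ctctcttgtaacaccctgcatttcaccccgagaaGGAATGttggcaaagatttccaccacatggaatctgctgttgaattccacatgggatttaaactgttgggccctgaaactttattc
Aspn: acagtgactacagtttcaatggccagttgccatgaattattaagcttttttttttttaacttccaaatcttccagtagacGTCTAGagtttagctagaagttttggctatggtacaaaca
Islr: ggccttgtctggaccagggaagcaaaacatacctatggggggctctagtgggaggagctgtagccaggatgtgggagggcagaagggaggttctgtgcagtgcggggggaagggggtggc
In Bgn the capitals mark 3 GC boxes (GGGCGG) on the reverse strand, beginning 34, 10 and 6 bases before the start, of which the last pair overlaps. In Ogn they mark a TEAD motif (GGAATG) beginning 86 bases before the start, and in Aspn a SMAD motif (GTCTAG) beginning 40 bases before it. None of the 6 motifs searched occurred in the window of Islr.

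The 250 bases before the start were searched on both strands in 9 windows of 8 members. Dcn and Lum, both called lower, had no window. GGGCGG occurred in Bgn and Podn, TATAAA in Aspn and Ogn, and CCAAT in Aspn and Prelp. The TATAAA matches began 207 and 178 bases before the start in Aspn and 229 and 227 bases before it in Ogn. Those of CCAAT began 229 bases before the start in Aspn and 15 in Prelp. GGAATG occurred in Ogn, GTCTAG in Aspn, and TGANTCA in no member. GGGCGG occurred in 32.7% of all 32851 promoters of that length, GGAATG in 12.6%, GTCTAG in 7.11%, the AP-1 motif TGANTCA in 6.75%, the TATA box TATAAA in 12.4% and CCAAT in 33.8%. GC content was 78.0% and 64.0% for the windows of Podn, 64.4% for Bgn, 59.6% for Islr and 55.6% for Prelp. It was 51.2% for Fmod, 42% for Ogn, 38.4% for Omd and 30.0% for Aspn. The median over all promoters was 52.4% (quartiles 45.2% and 61.2%). The lower-called Islr and the higher-called Bgn were thus both on the GC-rich side, as were Prelp, not called, and Podn, not tested. The 3 members of the chromosome 13 cluster were on the GC-poor side. Matches are letters in a window, not sites shown to be bound.

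Growth factors and receptors that bind the family held more higher than lower genes, as did all tested genes (9.91% higher, 6.69% lower). Of 21 listed, 18 were tested, 8 were higher and 1 was lower, with a median log2 fold change of 0.30. Tgfb2, a TGF-beta ligand that decorin and its relatives can hold, averaged 23.8 ± 3.61 FPKM in Wtap-CKO hearts and 5.49 ± 0.503 FPKM in Wtapflox/flox hearts (SD, n = 3 each; log2 fold change 1.93, adjusted p = 0.000204, limma). Tgfb3 averaged 18.4 ± 1.44 FPKM in Wtap-CKO and 7.38 ± 0.349 FPKM in Wtapflox/flox (1.21, adjusted p = 0.000707), while Tgfb1, named after its value was seen, was at 0.09 on the log2 scale (adjusted p = 0.612). Bmp4, whose signalling biglycan tunes, averaged 9.91 ± 0.422 FPKM in Wtap-CKO and 4.28 ± 0.310 FPKM in Wtapflox/flox (1.05, adjusted p = 0.000906). Ctgf, a matrix growth factor that decorin binds, averaged 378 ± 13.3 FPKM in Wtap-CKO and 78.5 ± 31.6 FPKM in Wtapflox/flox (2.33, adjusted p = 0.00153). The other 4 higher genes, named after their values were seen, were Bmp6 (1.14), Tlr4 (0.62), a receptor for free biglycan, Igf1r (0.60) and Wisp1 (0.51). Kdr, the endothelial receptor for vascular endothelial growth factor, was lower (-0.43, adjusted p = 0.0497), a call lost when any one of the 6 libraries was left out. On the TPM scale, and without Wtap-CKO 2, Wtapflox/flox 1 or Wtapflox/flox 3, 5 of the list were higher.

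The next list held enzymes that trim, cleave or crosslink these proteins and their collagen partners, and enhancers of that processing. Of 17 listed, 12 were tested, 5 were higher and 0 lower, with a median of 0.26. The shares of all tested genes were 9.91% higher and 6.69% lower. Adamts1, a protease that cuts matrix proteoglycans, averaged 52.4 ± 13.2 FPKM in Wtap-CKO and 14.3 ± 3.99 FPKM in Wtapflox/flox (1.81, adjusted p = 0.00205, limma). Pcolce, an enhancer of procollagen processing, was higher at 0.73 (adjusted p = 0.011), the crosslinking enzyme Loxl2 at 0.71 (0.0075) and the protease Adamts5 at 0.75 (0.00792). Lox, which was named after its value was seen, was higher at 1.21 (0.0188). Mmp2, a gelatinase, was at 41.7, 48.6 and 43.9 FPKM in Wtap-CKO 1, 2 and 3 and at 62.5, 52.0 and 56.1 FPKM in Wtapflox/flox 1, 2 and 3. The groups did not overlap, and Mmp2 did not pass (-0.34, 95% confidence interval -0.64 to -0.04, adjusted p = 0.12), though it was called lower on the TPM scale.

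Of 15 fibril and microfibril partners, all tested, 1 was higher and 2 were lower, near the 16.6% of all tested genes called, with a median of -0.00. Col12a1, a collagen that coats fibrils, averaged 5.54 ± 1.45 FPKM in Wtap-CKO and 2.23 ± 0.398 FPKM in Wtapflox/flox (1.0, adjusted p = 0.00791, limma). Dpt, whose protein dermatopontin binds decorin, averaged 42.6 ± 12.2 FPKM in Wtap-CKO and 72.4 ± 9.27 FPKM in Wtapflox/flox (-0.78, adjusted p = 0.0346), and Tnxb, a tenascin that bridges fibrils, was lower as well (-1.10, adjusted p = 0.0433). Both lower calls were lost without Wtap-CKO 1, Wtapflox/flox 1 or Wtapflox/flox 2, and 1 of them without Wtap-CKO 2, Wtap-CKO 3 or Wtapflox/flox 3, while 2 of the list were higher without Wtap-CKO 3. Eln, the elastin gene, averaged 259.6 ± 64.3 FPKM in Wtap-CKO and 159 ± 28.4 FPKM in Wtapflox/flox, without overlap, and missed the threshold (0.69, adjusted p = 0.0605). It was the other gene called higher without Wtap-CKO 3. Of the fibrillar collagens, named after their values were seen, Col3a1 was at 204, 206 and 161 FPKM in Wtap-CKO 1, 2 and 3 and at 276, 243 and 236 FPKM in Wtapflox/flox 1, 2 and 3, without overlap (-0.41, 95% confidence interval -0.78 to -0.03, adjusted p = 0.128), and was called lower on the TPM scale. Col1a1 was at 254, 224 and 139 FPKM in Wtap-CKO 1, 2 and 3 and at 217, 219 and 163 FPKM in Wtapflox/flox 1, 2 and 3, which overlapped (0.01, adjusted p = 0.98).

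Few enzymes that build the sugar chains passed the test, where 16.6% of all tested genes did. Of 23 chondroitin and dermatan sulfate enzymes 20 were tested, 1 was higher and 0 lower, with a median of 0.12. The higher one was Chpf, a chondroitin polymerizing factor, which averaged 38.1 ± 3.07 FPKM in Wtap-CKO and 18.2 ± 1.49 FPKM in Wtapflox/flox (1.02, adjusted p = 0.00156, limma). Dse, the epimerase that turns chondroitin into dermatan sulfate, was at 0.47 (0.0502), Chpf2 at 0.43 (0.0554), Chsy1 at 0.42 (0.0633) and the sulfotransferase gene Chst7 at -0.21 (0.327), and 5 of the list were higher without Wtap-CKO 3 or with limma-voom. The sulfate donor transporter Slc35b2 was the only called gene of 7 for sulfate supply (0.58, adjusted p = 0.0289), and its call was lost on the TPM scale and without Wtap-CKO 1, Wtap-CKO 3, Wtapflox/flox 1 or Wtapflox/flox 2. None of 5 tested keratan sulfate enzymes, of 8 listed, passed in limma or limma-voom, and 2 of them, B4galt4 (0.41) and Chst2 (-0.30), had an unadjusted p under 0.05.

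**Figure D5:**
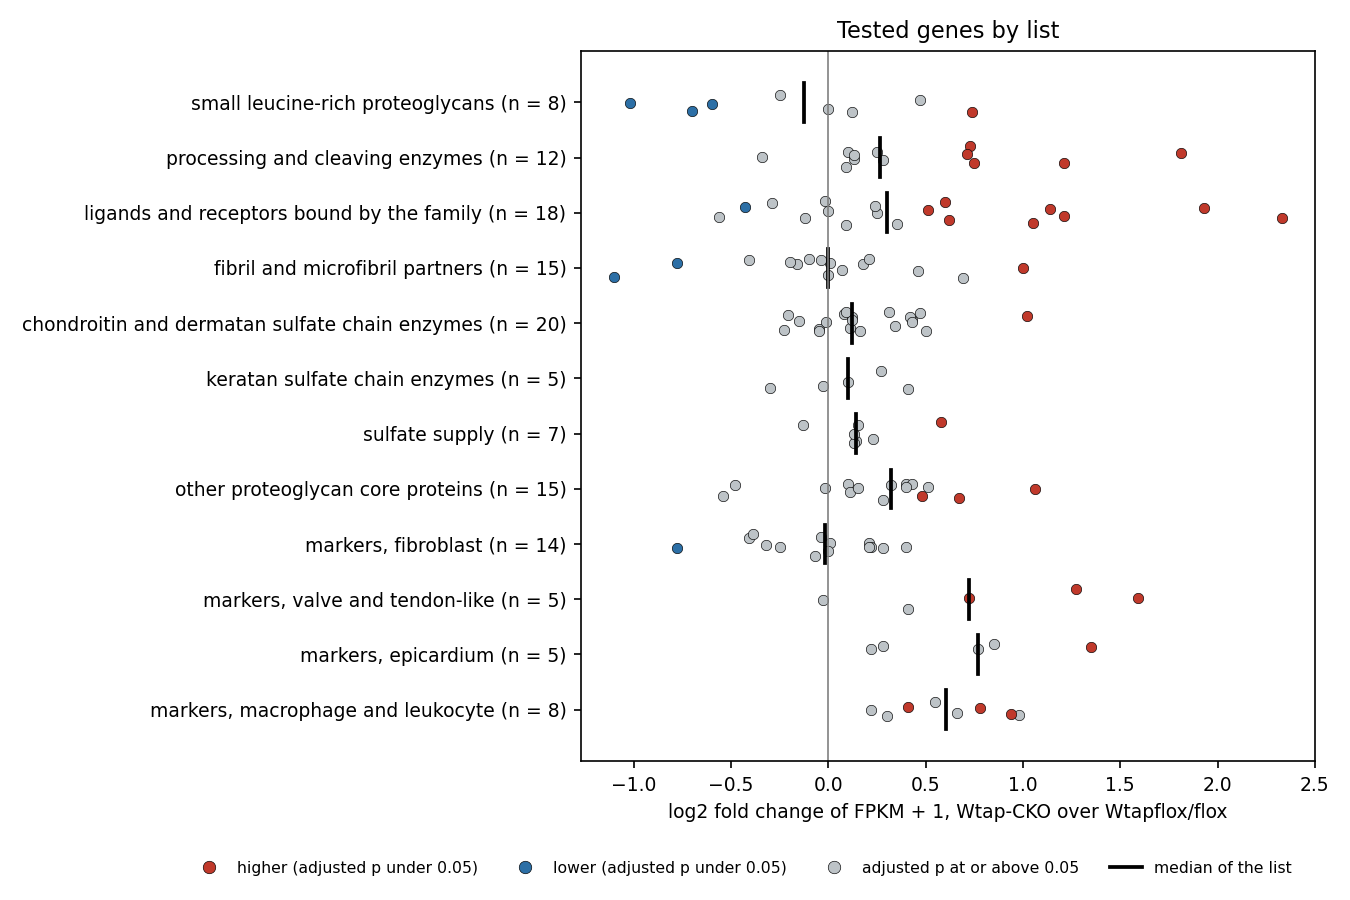
Log2 fold change of FPKM + 1, Wtap-CKO over Wtapflox/flox, of each tested gene by list, coloured by its limma call, with a black bar for the median of the list. The small leucine-rich proteoglycans spread on both sides of 0. The ligands and receptors (8 higher, 1 lower) and the processing enzymes with their enhancers (5 higher, 0 lower) lie more to the right. Of all tested genes 9.91% were higher and 6.69% lower.

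The summed levels of marker genes stand beside these values as follows. For the counts of calls, the background was 9.91% higher and 6.69% lower over all tested genes. Of 14 fibroblast markers, all tested, 0 were higher and only Dpt was lower. Their summed level was 698 to 883 FPKM in Wtap-CKO libraries and 827 to 975 FPKM in Wtapflox/flox libraries. These sums overlapped on the FPKM scale, and marker sums were not compared on the TPM scale. The median log2 fold change of the list was -0.02, and -0.17 on the TPM scale, where that of all tested genes was -0.13. On the TPM scale 3 markers were lower. On the FPKM scale 0 were lower when any library other than Wtap-CKO 3 was left out. Fbln1 was at -0.39 (adjusted p = 0.0573, limma) and Col3a1 at -0.41 (0.128), both without overlap between the groups, and Vcan at 0.40 (0.0976), with overlap; Fbln1, Col3a1 and Dpt were the 3 lower on the TPM scale. Other lists had higher sums in all 3 Wtap-CKO libraries. Valve and tendon-like markers summed to 45.6 to 49.2 FPKM in Wtap-CKO and 17.5 to 23.2 FPKM in Wtapflox/flox, with 3 of 5 tested higher: the tendon regulator Scx (1.59, adjusted p = 0.00168, limma), Thbs4 (1.27, adjusted p = 0.000906) and Cilp (0.72, adjusted p = 0.0259). Sox9, of the same list, averaged 3.84 FPKM in Wtap-CKO and 3.95 FPKM in Wtapflox/flox (-0.03, adjusted p = 0.913), Comp was at 0.41 (0.11), and Mkx was under 0.1 FPKM. Cilp was not called on the TPM scale or when any library other than Wtap-CKO 3 was left out, which leaves 2 of the 5. Epicardial markers summed to 50.6 to 51.3 FPKM in Wtap-CKO and 32.8 to 36.8 FPKM in Wtapflox/flox. Of 5 tested, 1 was higher (Krt19, 1.35, adjusted p = 0.00481, limma), and Upk1b, Lrrn4 and Bnc1 were under 0.1 FPKM. Aldh1a2, the most abundant of the 5, averaged 30.9 FPKM in Wtap-CKO and 25.2 FPKM in Wtapflox/flox (0.28, adjusted p = 0.195, limma). Also not called were Tbx18 (0.85, adjusted p = 0.0618, limma), Krt8 (0.77, 0.265) and, named after its value was seen, Wt1 (0.22, 0.367). Macrophage and leukocyte markers summed to 75 to 144 FPKM in Wtap-CKO, highest in Wtap-CKO 3, and 51.1 to 58.0 FPKM in Wtapflox/flox, with 3 of 8 tested higher (C1qa 0.78, C1qb 0.94 and Mrc1 0.41). That count was 0 without Wtapflox/flox 1 or Wtapflox/flox 2 and 1 without Wtap-CKO 1 or Wtapflox/flox 3, and 2 epicardial markers were higher without Wtap-CKO 2 or Wtap-CKO 3.

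Summed smooth muscle markers (794 to 1017 FPKM in Wtap-CKO, 636 to 858 FPKM in Wtapflox/flox) and endothelial markers (369 to 382 FPKM in Wtap-CKO, 332 to 373 FPKM in Wtapflox/flox) overlapped, with 2 higher and 1 lower in each list. In smooth muscle Cnn1 was at 1.11, Cspg4 at 0.67 and Abcc9 at -1.13, and in endothelium Emcn at 0.87, Vwf at 0.65 and Kdr at -0.43, so markers within a list went both ways (1 higher and 3 lower on the TPM scale for smooth muscle, 1 higher and 2 lower for endothelium). Without 1 library 0 to 2 smooth muscle and 1 or 2 endothelial markers were higher, with 0 smooth muscle markers higher without Wtap-CKO 1 or Wtapflox/flox 3. Cartilage and bone markers stand for relatives of the tissues for which Omd is known. They summed to 3.44 to 4.27 FPKM in Wtap-CKO and 3.39 to 4.66 FPKM in Wtapflox/flox, with Col2a1, Matn1, Ibsp and Sp7 under 0.1 FPKM. The 2 tested genes went opposite ways, both without overlap between the groups. Alpl was higher (0.68, adjusted p = 0.00906, limma), and Acan was at -0.54 (adjusted p = 0.0709, limma). Acan was called lower on the TPM scale, after scaling without mitochondrially encoded genes, with limma-voom and without Wtap-CKO 2. Schwann cell and neuron markers were at 3.02 to 4.83 FPKM in Wtap-CKO and 3.07 to 3.55 FPKM in Wtapflox/flox, with 0 of 2 called in limma or limma-voom and 1 at an unadjusted p under 0.05. Erythroid markers were at 1227 to 2208 FPKM in Wtap-CKO and 661 to 2173 FPKM in Wtapflox/flox, with 0 of 6 called in either test and 0 at an unadjusted p under 0.05. Of 10 cardiomyocyte markers 0 were higher and 1, Ryr2, was lower (-0.97, adjusted p = 0.0233, limma). With 1 library left out Ryr2 was called only without Wtap-CKO 2 or Wtapflox/flox 3, and 2 markers, Ryr2 and Pln (-0.53, adjusted p = 0.0751), were lower under each of the 4 other scalings and with limma-voom. The part of the marker shifts in the values of the family was not tested.

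Of the other 10 members and near relatives of the family, Ecm2, which shares its stretch with Cenpp, was the only one called among 2 tested. Of all tested genes 16.6% were called, and 6.69% were lower as Ecm2 was. Tsku, a TGF-beta binding relative, averaged 3.21 ± 0.272 FPKM in Wtap-CKO and 2.98 ± 0.623 FPKM in Wtapflox/flox (0.09, adjusted p = 0.697, limma). Chad averaged 0.509 FPKM in Wtap-CKO and 0.606 FPKM in Wtapflox/flox, and Chadl 0.330 FPKM in Wtap-CKO and 0.308 FPKM in Wtapflox/flox. Islr2, Epyc, Optc, Nyx, Podnl1 and Kera were each at 0.197 FPKM or less in every library.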

How the data were processed

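RNA of hearts from 3 Wtap-CKO and 3 Wtapflox/flox mice was sequenced as read pairs. Per the submitters' processing notes, the tools were CASAVA, HISAT2 2.0.5, featureCounts 1.5.0-p3 and DESeq2 1.20.0, and the build was GRCm39. The authors deposited FPKM per gene. The coordinates of the deposited table fit GRCm38. Of 20458 protein coding genes matched by name, 94.9% have a start or an end within 1000 bases of that in RefSeq GRCm38.p6. In GRCm39 3.32% of 19026 do, so coordinates are given as GRCm38. FPKM times gene length gave whole multiples of 1 step in 100.0% of values (tolerance 0.01 step), and these recovered reads give the depth.

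Genes that averaged 1 FPKM or more across all 6 libraries entered the test, on log2(FPKM + 1) with limma 3.58.1 (R 4.3.3, variance trend and robust moderation, two-sided), with Benjamini-Hochberg adjustment over all 12568 genes tested and a threshold of 0.05. Fold changes on this scale understate those of low genes. An exact permutation test of 3 against 3 cannot go below p = 0.1 and was not used. The script was tested on simulated data. The 20 alternatives varied pseudocount, filter, scaling, limma's options and the libraries included, and used limma-voom on the recovered reads.

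The 10 genes and all gene lists were chosen with earlier results of these data known. Genes named from other lists come from a rule (up to 4 of the lowest adjusted p, and the top gene of the opposite direction), except where stated or where a marker is at or near 0, and not every uncalled gene the rule gives is printed. Python 3.11.15 (pandas 2.3.3, numpy 2.4.6, scipy 1.17.1, matplotlib 3.10.9) was used for tables and figures.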

Additional observations from a re-analysis of the deposited data

How the results depend on the processing

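Lum, Islr and Prelp kept their direction and their side of the threshold under all 20 alternatives, and Bgn under 19. The count of higher members was 1, but 2 with array weights, 2 with limma-voom on recovered reads and 0 at an adjusted p under 0.01, and 0 to 2 with 1 library left out; the count of lower members was 2 or 3 throughout. Aspn turned to -0.01 after quantile normalization, -0.05 on the TPM scale and -0.06 without mitochondrially encoded genes. Fmod turned to -0.07 after upper-quartile scaling, -0.01 after quantile normalization, -0.14 on the TPM scale, -0.15 without mitochondrially encoded genes and -0.26 with array weights, and ran from -0.26 to 0.24 with 1 library left out. Wtap turned to 0.01 with array weights and ran from -0.13 to 0.09 with 1 library left out. The cause was not tested. Over all genes 1206 passed without a filter, 3732 with array weights, 785 at an adjusted p under 0.01 and 1195 to 2012 with 1 library left out. Of the genes of the other lists, where 36 were called, 19 were called without a filter, 61 with array weights and 20 to 43 with 1 library left out. With the replicate number as a block (replicate block), 1673 of all genes and the same members were called, and same-numbered libraries did not deviate together (correlations -0.216, -0.075 and -0.076). Limma-voom on the recovered reads called 2537 genes. At 33 reads in Wtap-CKO and 24 in Wtapflox/flox, Omd is limited by depth, and p-values cover only the spread between these 6 libraries.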

Other observations

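Proteoglycan core proteins outside the leucine-rich family held 3 higher and 0 lower genes among 15 tested of 23 listed. Calls in either direction were near the 16.6% of all tested genes, of which 9.91% were higher and 6.69% lower. The median log2 fold change of the list was 0.32. Sdc4, a heparan sulfate proteoglycan of the cell surface found at focal adhesions, was at 13, 12.2 and 13.3 FPKM in Wtap-CKO 1, 2 and 3, against 4.93, 5.81 and 6.09 FPKM in Wtapflox/flox 1, 2 and 3. The groups were well apart (log2 fold change 1.06, adjusted p = 0.0011, limma). Cspg4, the pericyte proteoglycan also called NG2, was higher by 0.67 (adjusted p = 0.028), and the syndecan Sdc3 by 0.48 (adjusted p = 0.0421). Acan, the large proteoglycan of cartilage, was at 0.771, 1.27 and 0.600 FPKM in Wtap-CKO 1, 2 and 3 and at 1.71, 2.17 and 1.31 FPKM in Wtapflox/flox 1, 2 and 3, with no overlap, and did not pass (-0.54, adjusted p = 0.0709). Without Wtap-CKO 3, 7 of the list were higher, and without any one of the other 5 libraries 1 was; 2 were lower without Wtap-CKO 2. On the TPM scale 1 was higher and 1 was lower, and with limma-voom 4 were higher and 1 was lower.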
